A study of Mus musculus with 20 samples.

Results

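In whole liver of mice given IL-1β or saline, 10 genes known from endothelium were followed. The genes were chosen by symbol, as 1 row each of the deposited gene tables, and are Icam1, Vcam1, Sele, Selp, Pecam1, Cdh5, Kdr, Angpt2, Stab2 and Lyve1. They are 10 of the 37681 genes in the tables, and all 10 were among the 15578 genes counted as detected. Male mice of 12 weeks of age, of the strain labelled C57/BL6 (C57/B6J in the growth protocol), received IL-1β at 20 µg/kg (5 mice, labelled ILB_9577, ILB_9578, ILB_9579, ILB_9582 and ILB_9583) or saline (5 mice, labelled UNT_9574, UNT_9575, UNT_9576, UNT_9580 and UNT_9584, called untreated from here on). Livers were taken 4 hours later, and RNA of each mouse was made into 1 Illumina and 1 Ion Torrent library. Each platform was aligned with GSNAP, with STAR, and with STAR followed by Bowtie2, which gave 6 tables of the same 10 mice. The tables are therefore not independent of each other, and the replicate is the mouse. Values below are from the Illumina libraries aligned with STAR unless another table is named.

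Endothelial cells recruit leukocytes from the blood in steps. Selectins on the endothelial surface let the cells tether and roll, after which the immunoglobulin-family molecules ICAM-1 and VCAM-1 bind leukocyte integrins and hold them firmly, and junction molecules govern the passage between cells. Cytokines such as IL-1β are known to raise selectins and integrin ligands in endothelial cells. The sinusoids of the liver are lined by a specialised, perforated endothelium that lies on no continuous basement membrane and carries scavenger receptors such as stabilin-2.

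Totals per library ran from 10568530 to 12008799 in the Illumina tables and from 12199528 to 16439683 in the Ion Torrent tables, which the authors had re-sampled to a common depth within each table. One untreated mouse, UNT_9584, stood somewhat apart, since the deviations of its Illumina and Ion Torrent libraries from their group correlated at 0.248 across genes, against 0.547 to 0.715 in the other mice. Levels are given as CPM, the read count scaled to a common library size after TMM normalisation. Hepatocyte markers summed to between 67738 and 116007 CPM in every library, as in whole liver, so the endothelial genes were read against a large excess of hepatocyte RNA. In such bulk samples, fewer cells of a type and less RNA per cell cannot be told apart. Which cells of the liver made the RNA of the followed genes, Icam1 and Vcam1 among them, was not tested. The response to IL-1β was broad. Of the 15578 genes, 3541 (22.7%) were called higher and 3575 (22.9%) lower by edgeR at an adjusted p below 0.05, together 45.7%. With library totals as the only scaling, these shares became 17.6% and 27.8%, and the median fold change, over genes that averaged 20 reads or more, moved to −0.12 on the log2 scale.

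Of the 10 endothelial genes, 7 were higher with IL-1β (Icam1, Vcam1, Sele, Selp, Cdh5, Angpt2 and Lyve1). Only 1 was lower (Kdr), and 2 were not called (Pecam1 and Stab2). The shares over all genes stand beside these counts as description, since the 10 genes were chosen with earlier results of these data known. Sele passed the minimum of 5 reads in 5 libraries through the treated mice alone, and the other 9 genes also reached it in the untreated mice. The read counts of treated and untreated mice did not overlap for 8 of the 10, where 33.6% of all genes had groups that did not overlap. Sele, Angpt2, Selp and Icam1 had the 4 highest log2 fold changes, 2.26 to 3.75, followed by Lyve1 and Vcam1 at 1.49 and 1.40. Of the junction genes Cdh5 rose less, by 0.89, and Pecam1 was not called, and of the sinusoidal receptors Lyve1 rose and Stab2 was not called.

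To show the regulatory sequence in front of the genes that moved most, the 250 bases upstream of the start were taken from RefSeq (GRCm38.p6) for the 3 adhesion genes with a window there and for Kdr, the gene that fell. Windows were found for 5 of the 10 genes (Icam1, Sele, Selp, Kdr and Stab2). Each is written 5′ to 3′ on the strand of the gene, and capitals mark a match to a motif. The motifs were searched on both strands of the window, which holds 250 bases before and 50 after the start. They were the NF-κB motif, the AP-1 motif TGANTCA, the CRE motif TGACGTCA and the shorter NF-κB-like motif GGANNTTCC, which was added after the windows had been seen.
Icam1, chr9:21015690-21015939, + strand: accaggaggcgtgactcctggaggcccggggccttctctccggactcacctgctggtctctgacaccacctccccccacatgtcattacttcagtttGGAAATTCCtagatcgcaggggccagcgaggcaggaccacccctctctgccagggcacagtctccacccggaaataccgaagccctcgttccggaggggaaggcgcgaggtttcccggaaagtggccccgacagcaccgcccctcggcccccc
Sele, chr1:164047984-164048233, + strand: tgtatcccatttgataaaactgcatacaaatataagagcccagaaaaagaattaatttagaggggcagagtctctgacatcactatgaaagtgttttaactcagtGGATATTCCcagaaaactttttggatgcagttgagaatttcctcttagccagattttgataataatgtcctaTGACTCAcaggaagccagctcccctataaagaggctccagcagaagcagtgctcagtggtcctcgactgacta
Selp, chr1:164115014-164115263, + strand: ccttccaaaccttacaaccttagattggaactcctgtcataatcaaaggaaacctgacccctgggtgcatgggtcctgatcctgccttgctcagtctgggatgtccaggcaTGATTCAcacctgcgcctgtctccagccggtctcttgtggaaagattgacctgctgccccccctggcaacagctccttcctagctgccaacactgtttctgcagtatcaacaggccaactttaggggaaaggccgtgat
Kdr, chr5:75978456-75978705, − strand: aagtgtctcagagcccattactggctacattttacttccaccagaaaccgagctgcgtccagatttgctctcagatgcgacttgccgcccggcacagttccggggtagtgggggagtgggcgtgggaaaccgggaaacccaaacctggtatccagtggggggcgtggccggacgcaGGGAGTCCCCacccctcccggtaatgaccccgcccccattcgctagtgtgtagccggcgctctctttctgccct
Upstream of Icam1, GGAAATTCC lies at positions −153 to −145 from the start, where GGANNTTCC is matched on either strand. Upstream of Sele, GGATATTCC lies at −145 to −137 and TGACTCA at −73 to −67. Upstream of Selp, TGATTCA lies at −139 to −133. Upstream of Kdr, which fell, the full NF-κB motif is matched by GGGAGTCCCC at −74 to −65. The window of Stab2 held none of the 4 motifs. Such matches are common, since of 32851 windows of the same length 8.46% held the NF-κB motif, 7.81% TGANTCA, 1.79% TGACGTCA and 4.26% GGANNTTCC. A match is a description of the letters and not of binding.

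Icam1 encodes ICAM-1, the ligand of the leukocyte integrins LFA-1 and Mac-1 (ENSMUSG00000037405, mm9 chr9:20820404-20833241, + strand). Its read counts were 514, 527, 651, 555 and 507 in the 5 treated mice and 185, 143, 133, 100 and 93 in the untreated mice, in the order of mice given above. Every treated mouse was thus above every untreated mouse, and the lowest treated count was well clear of the highest untreated one. The normalised level was 54.3 ± 6.21 CPM with IL-1β against 11.3 ± 2.76 without (SD, n = 5 each). Icam1 was 4.79-fold higher (log2 2.26, SE 0.15, adjusted p = 2.44e-08, edgeR), which gave it the smallest adjusted p of the 10. In the Ion Torrent libraries aligned with STAR, counts were 731, 756, 1038, 815 and 709 with IL-1β and 268, 172, 169, 144 and 152 without, and the log2 fold change was 2.33 (SE 0.16).

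Vcam1 encodes VCAM-1, which binds the integrin α4β1 of lymphocytes and monocytes (ENSMUSG00000027962, chr3:115812938-115832606, − strand). Counts were 332, 308, 264, 251 and 257 in treated mice and 185, 125, 119, 74 and 106 in untreated mice. The groups did not overlap, and untreated mouse UNT_9574 was the highest of its group. The level rose from 10.5 ± 3.16 to 27.8 ± 2.95 CPM, 2.63-fold (log2 1.40, SE 0.17, adjusted p = 1.11e-05, edgeR). Ion Torrent counts were 317, 307, 277, 255 and 194 against 134, 96, 114, 56 and 85 (log2 1.64, SE 0.18).

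Sele encodes E-selectin, which is made by activated endothelium and binds sugar ligands on rolling leukocytes (ENSMUSG00000026582, chr1:165978365-165987808, + strand). It was close to silent in untreated livers, with 0, 1, 1, 1 and 0 reads, and had 6, 15, 12, 6 and 4 reads with IL-1β. The groups did not overlap, although all values were small. The treated mice held 43 reads in all and the untreated mice 3, a ratio of 14.8 after the library totals with an exact 95% counting interval of 4.75 to 74.7, which covers counting error only. The fitted log2 fold change of 3.75 (SE 0.63, adjusted p = 0.000181, edgeR) had the widest error of the 10 genes. Since no more than 1 untreated library held 5 reads in any table, Sele could be tested only because it was high with IL-1β, and its call and its place among the 10 are given as description. On Ion Torrent, counts were 10, 18, 20, 5 and 3 with IL-1β and 0, 6, 1, 0 and 0 without. There the groups overlapped, since the 6 reads of untreated mouse UNT_9575 exceeded the counts of treated mice ILB_9582 and ILB_9583. The Ion Torrent read ratio was 8.24 (95% counting interval 3.75 to 21.4), and the fit still called the gene (log2 3.05, SE 0.77, adjusted p = 0.00407, edgeR). Without mouse UNT_9575 the untreated group held 1 read on Ion Torrent and the fitted log2 fold change was 5.04.

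Selp encodes P-selectin, which endothelial cells and platelets store in granules and bring to the surface on activation (ENSMUSG00000026580, chr1:166045395-166080157, + strand). It lies 57586 bp downstream of Sele. Counts were 64, 44, 95, 51 and 51 in treated mice and 10, 18, 11, 6 and 8 in untreated mice. The groups did not overlap, and treated mouse ILB_9579 was the highest. The level was 6.01 ± 2.01 against 0.917 ± 0.375 CPM, a 6.45-fold rise (log2 2.69, SE 0.29, adjusted p = 2.58e-06, edgeR). Ion Torrent gave 100, 68, 112, 65 and 69 reads against 23, 13, 8, 4 and 12 (log2 2.94, SE 0.31). The last exons of Selp share 438 bp with the lincRNA Gm16548 on the opposite strand, and 186 bp with Gm16587. Gm16548 had 588 reads over the untreated and 245 over the treated mice, so it went the other way from Selp, and whether the authors counted by strand is not given in the sources used here. Platelet markers, the other source of P-selectin, summed to 2.81 to 4.27 CPM in untreated and 2.17 to 4.23 in treated mice, with Gp6 at 0 in all untreated mice, and 1 of the 2 tested members (Pf4, log2 1.35) was called higher, having passed the minimum of reads through the treated mice alone. Their part in the result was not tested.

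**Figure D1:**
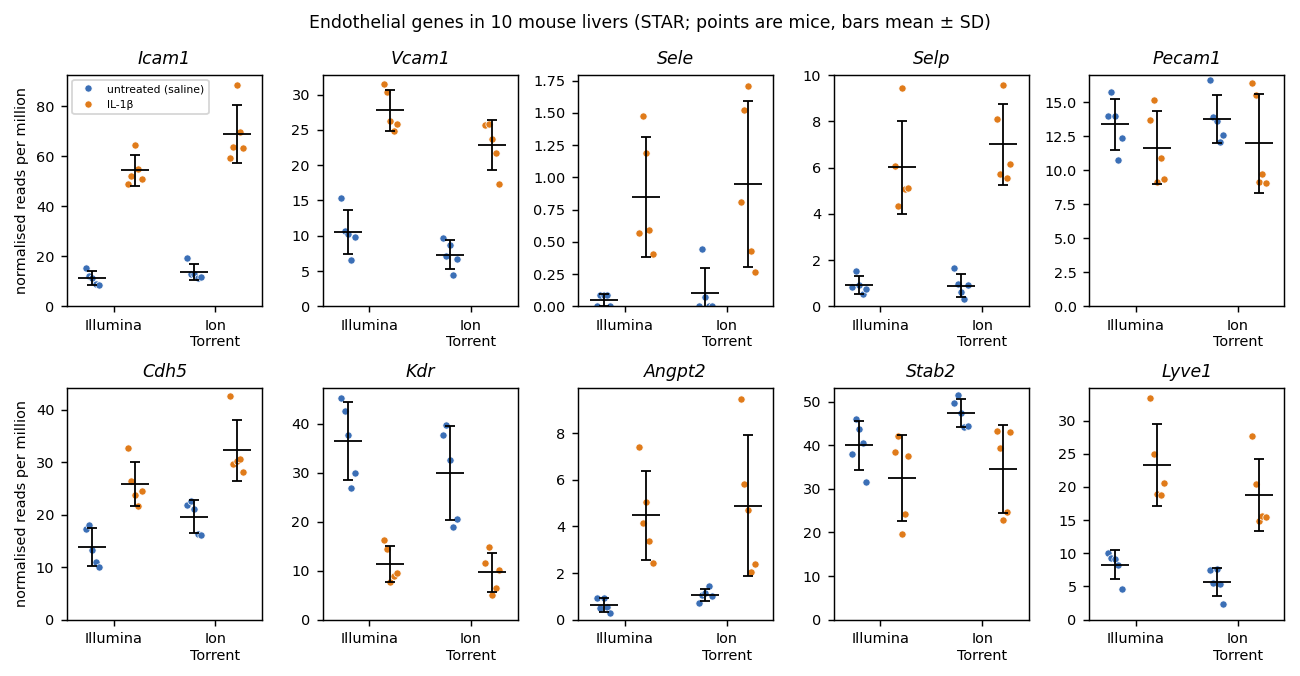
Normalised level in CPM (vertical axes, each from 0) of the 10 genes in each mouse on Illumina and Ion Torrent after STAR; points are mice, untreated in blue and IL-1β in orange, and black bars are the mean ± SD of 5 mice. Icam1, Vcam1 and Selp separate the groups on both platforms, Kdr separates them in the opposite direction, and Pecam1 overlaps on both.

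Of the junction molecules, Cdh5 encodes VE-cadherin, the adhesion molecule of endothelial adherens junctions (ENSMUSG00000031871, chr8:106625525-106668402, + strand). Its counts were 344, 267, 239, 218 and 244 with IL-1β and 207, 212, 154, 123 and 109 without. The lowest treated mouse, at 218 reads, was only just above the highest untreated mouse, at 212. In the Illumina tables of GSNAP and of STAR followed by Bowtie2 the groups of read counts overlapped. There 35% and 34.6% of all genes had groups of counts that did not overlap. In CPM, the lowest treated mouse lay above the highest untreated one in both, at 19.7 against 18.3 and 21.1 against 18.5. The rise from 13.9 ± 3.60 to 25.8 ± 4.19 CPM was 1.85-fold (log2 0.89, SE 0.17, adjusted p = 0.000502, edgeR), the smallest of the 7. Ion Torrent counts were 525, 352, 355, 359 and 317 against 302, 305, 278, 207 and 206 (log2 0.72, SE 0.14).

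Pecam1 encodes PECAM-1 (CD31), which sits at endothelial junctions and takes part in leukocyte passage (ENSMUSG00000020717, chr11:106515531-106611942, − strand). Counts were 144, 154, 92, 110 and 93 in treated mice and 168, 185, 163, 121 and 133 in untreated mice. The groups overlapped, with treated mice ILB_9577 and ILB_9578 inside the untreated range. The log2 difference was −0.20 (95% interval −0.54 to 0.14, adjusted p = 0.347, edgeR), an interval that holds both no change and a modest fall. Ion Torrent gave 202, 184, 107, 114 and 102 reads against 229, 187, 179, 152 and 160, again a log2 difference of −0.20 (95% interval −0.58 to 0.19).

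The vascular growth factor genes moved in opposite directions. Kdr encodes VEGFR-2, the main signalling receptor for VEGF-A on endothelial cells (ENSMUSG00000062960, chr5:76328852-76374483, − strand). Counts were 171, 146, 77, 90 and 95 with IL-1β and 545, 500, 440, 302 and 323 without. Even the highest treated mouse lay far under the lowest untreated mouse. The level fell from 36.5 ± 7.94 to 11.3 ± 3.73 CPM, 3.21-fold lower (log2 −1.68, SE 0.21, adjusted p = 9.68e-06, edgeR). Ion Torrent counts were 143, 176, 60, 77 and 114 against 521, 536, 431, 240 and 263 (log2 −1.63, SE 0.26).

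Angpt2 encodes angiopoietin-2, which endothelial cells release and which mostly opposes angiopoietin-1 at the receptor Tie2 (ENSMUSG00000031465, chr8:18690263-18741562, − strand). Counts were 78, 42, 51, 34 and 24 in treated mice and 11, 6, 11, 6 and 3 in untreated mice. The groups did not overlap. The level rose from 0.637 ± 0.286 to 4.48 ± 1.90 CPM, 6.88-fold (log2 2.78, SE 0.35, adjusted p = 1.33e-05, edgeR). Ion Torrent counts were 117, 69, 55, 24 and 27 against 10, 14, 15, 18 and 13, a smaller log2 fold change of 2.19 (SE 0.38) with groups that again did not overlap. Angpt2 lies inside Mcph1 on the opposite strand without sharing exon bases, and Mcph1 had 199 reads over the untreated and 192 over the treated mice.

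Of the sinusoidal receptors, Lyve1 encodes a hyaluronan receptor known from lymphatic endothelium and also carried by sinusoidal cells (ENSMUSG00000030787, chr7:117994121-118006467, − strand). Counts were 352, 253, 190, 189 and 205 with IL-1β and 121, 110, 107, 92 and 49 without. The groups did not overlap, and treated mouse ILB_9577 was the highest. The level rose from 8.27 ± 2.19 to 23.3 ± 6.16 CPM, 2.81-fold (log2 1.49, SE 0.21, adjusted p = 3.16e-05, edgeR). Ion Torrent counts were 342, 243, 174, 184 and 173 against 104, 74, 101, 68 and 30 (log2 1.72, SE 0.25).

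Stab2 encodes stabilin-2, the scavenger receptor by which sinusoidal cells clear hyaluronan from the blood (ENSMUSG00000035459, chr10:86303943-86470770, − strand). Counts were 406, 427, 198, 244 and 373 in treated mice and 457, 540, 510, 457 and 340 in untreated mice. Treated mice ILB_9579 and ILB_9582 were below all others, and the remaining treated mice lay within the untreated range. The log2 difference was −0.30 (95% interval −0.70 to 0.09, adjusted p = 0.201, edgeR). On Ion Torrent, counts were 534, 467, 268, 289 and 483 against 685, 695, 625, 557 and 566, the groups did not overlap, and Stab2 was called lower (log2 −0.45, SE 0.16, adjusted p = 0.0342, edgeR). That call held in 4 of the 10 fits that each left out 1 mouse. It was lost without treated mouse ILB_9579 (log2 −0.34) or ILB_9582 (log2 −0.33) and without untreated mouse UNT_9574, UNT_9575, UNT_9576 or UNT_9580, with adjusted p of up to 0.119 (edgeR). The difference between the platforms in the effect on Stab2 was −0.14 (95% interval −0.35 to 0.08) and was not called (adjusted p = 0.803, edgeR with the mouse as a block).

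**Figure D2:**
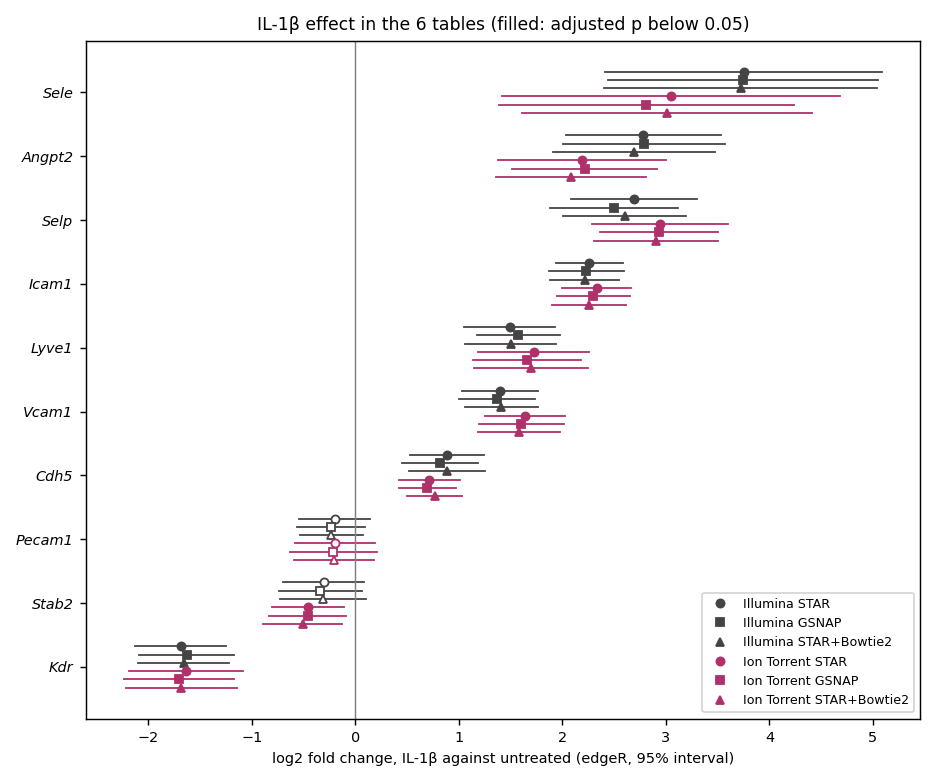
Log2 fold change of IL-1β against untreated (horizontal axis) with its 95% interval from edgeR for each gene in the 6 tables, Illumina in grey and Ion Torrent in magenta; filled symbols have an adjusted p below 0.05. The estimates run from 2.81 to 3.75 for Sele at the top and from −1.70 to −1.63 for Kdr at the bottom, and Stab2 is filled in the Ion Torrent tables alone.

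In all 6 tables the same 8 genes were called, in the same direction. The share of all genes called in these tables was 45.7%, 47.5% and 47.4% on Illumina (STAR, GSNAP, STAR followed by Bowtie2) and 42.1%, 46.4% and 46.7% on Ion Torrent. With STAR on Ion Torrent, 20.3% of all genes were called higher, 21.8% lower, and 31.3% had groups that did not overlap. A test of whether the effect of IL-1β differed between the platforms, fitted to the 20 STAR libraries with the mouse as a block, called 0 of the 10 genes by edgeR, where 0.00642% of all genes were called. At an unadjusted p below 0.05 it again held 0 of the 10, against 7% of all genes. With GSNAP or STAR followed by Bowtie2 the adjusted count was also 0 of 10, beside 0.0642% and 0.077% of all genes, where 7.8% and 7.77% of all genes were under the unadjusted threshold. The intervals of these differences were wide for the sparse genes, from −2.65 to 1.29 for Sele and from −1.37 to 0.12 for Angpt2, and narrow for Icam1, from −0.14 to 0.30. These intervals hold the differences between platforms that the fit did not exclude.

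Compared per length of exon, as RPKM (the read count over exon length and library size), the untreated level of the 10 genes fell into 3 tiers on Illumina. Kdr (5.02 ± 1.09), Stab2 (4.57 ± 0.638), Icam1 (4.45 ± 1.09), Cdh5 (3.49 ± 0.903), Lyve1 (3.17 ± 0.838), Pecam1 (3.10 ± 0.438) and Vcam1 (2.14 ± 0.642) followed each other with overlapping ranges over the 5 mice (SD, n = 5). Selp (0.208 ± 0.0851) and Angpt2 (0.173 ± 0.0775) formed a lower pair, and Sele (0.0178 ± 0.0163) stood under both. With IL-1β, Icam1 was alone at the top at 21.4 ± 2.45, followed by Lyve1 (8.94 ± 2.36), Cdh5 (6.47 ± 1.05) and Vcam1 (5.65 ± 0.600), whose ranges overlapped from neighbour to neighbour. Stab2 (3.70 ± 1.12), Pecam1 (2.70 ± 0.620), Kdr (1.56 ± 0.513), Selp (1.36 ± 0.456) and Angpt2 (1.21 ± 0.515) came next with overlapping neighbours, and Sele (0.291 ± 0.159) came last. The order was not the same on Ion Torrent. There Kdr was the fourth of the untreated order (4.12 ± 1.32) and the eighth with IL-1β (1.33 ± 0.537), Stab2 was the first without IL-1β (5.42 ± 0.371), and Sele overlapped the gene above it in both groups, so its separate place holds on Illumina alone. Icam1 was again apart at the top with IL-1β, at 27.1 ± 4.58.

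**Figure D3:**
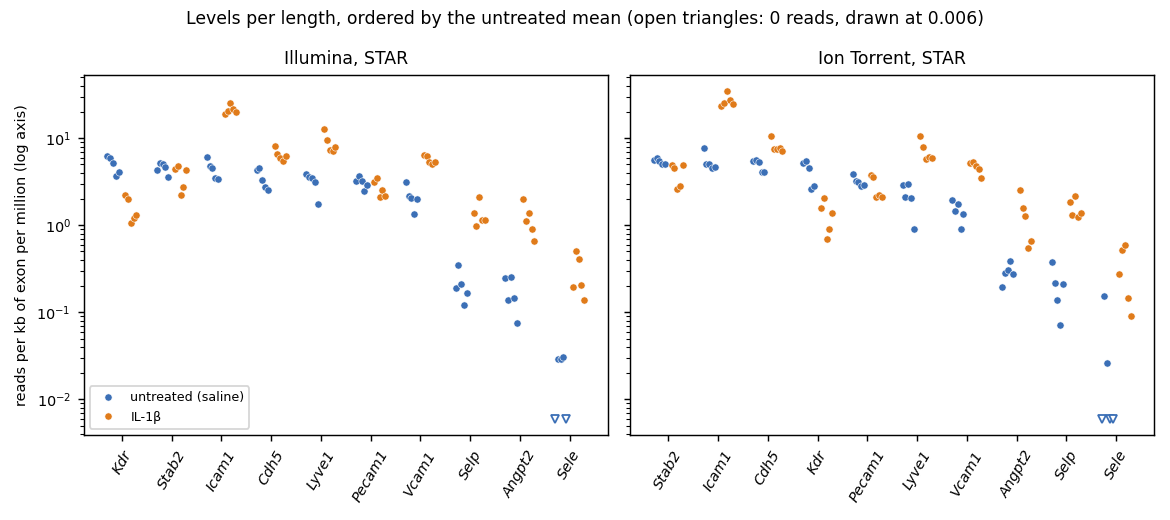
Level per exon length (RPKM, logarithmic vertical axis) of the 10 genes in each mouse, untreated in blue and IL-1β in orange, for Illumina and Ion Torrent after STAR; open triangles are libraries with 0 reads, drawn at 0.006. On Illumina, Icam1 lies at the top with IL-1β at 19.2 to 25.5, and Sele lies lowest in both groups.

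Since the genes are read from whole liver, each was also set against another endothelial gene of the same library. Relative to Pecam1, which was not called, the treated mice lay above all untreated mice for Icam1 (3.42 to 7.08 reads per Pecam1 read against 0.699 to 1.10), Vcam1 (difference of the mean log2 ratio 1.65), Sele (3.47), Selp (2.90), Cdh5 (1.13), Angpt2 (2.96) and Lyve1 (1.72), and below them for Kdr (−1.50). Stab2 overlapped (−0.14). Relative to Cdh5, itself raised, the ratios of Icam1 (1.37), Sele (2.35), Selp (1.77), Angpt2 (1.84) and Lyve1 (0.59) stayed above those of untreated mice, Vcam1 overlapped (0.53), and Pecam1 (−1.13), Kdr (−2.63) and Stab2 (−1.26) lay below. On Ion Torrent, the ratios to Cdh5 of Sele (2.63) and Angpt2 (1.25) overlapped between the groups and that of Vcam1 (0.96) did not, and relative to Pecam1 Sele overlapped as well (3.59). These ratios show unequal change among the genes and not which of a pair changed. Whether cells other than endothelium added reads to Pecam1 or Cdh5 was not tested.

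The mice of a group did not rank alike for all genes, but some were often at an end. Among the untreated mice on Illumina, UNT_9574 and UNT_9575 each held the highest level of 4 of the 10 genes, while UNT_9584 held the lowest of 5 and UNT_9580 of 4, leaving out Sele, where mice tied at 0 reads. Among the treated mice, ILB_9577 was the highest for 5 genes. On Ion Torrent, UNT_9580 was alone the lowest untreated mouse for 6 genes and UNT_9584 for 2, with 3 mice tied at 0 reads of Sele, and ILB_9577 was again the highest treated mouse for 5.

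The other endothelial genes moved in both directions. Of 91 listed adhesion, leukocyte-ligand, growth factor and endothelial genes, 86 were tested, 20 were higher (11 by the study's rank-sum test), 28 lower and 38 not called, with a median log2 fold change of −0.20 against 0 over all tested genes. Over all tested genes, the shares called higher and lower were 22.7% and 22.9%. Over the 23 alternatives in processing, the listed genes gave 10 to 21 higher and 13 to 34 lower calls. Among the other adhesion and junction genes, 5 of 16 rose and 4 fell (median −0.22). Darc, the chemokine-binding receptor of venular endothelium, had 4 to 13 reads in untreated and 13 to 25 in treated mice (log2 1.15, SE 0.30), and Ocln, the tight junction gene occludin, which hepatocytes and bile duct cells also express, fell, with 154 to 279 reads in untreated and 60 to 73 in treated mice (log2 −1.61, SE 0.17).

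The genes of the growth factor axis around Kdr and Angpt2 gave 0 higher and 6 lower calls of 14 tested (median −0.33). Over all genes, 22.7% were called higher and 22.9% lower. In the Ion Torrent tables, 1 gene of this list was called higher and 7 to 9 lower. Tek, the receptor Tie2 to which both angiopoietins bind, fell, with 69 to 138 reads in untreated and 19 to 55 in treated mice (log2 −1.61, SE 0.27, adjusted p = 0.000204, edgeR). Angpt1, the activating ligand, had 6 to 9 reads without and 1 to 3 with IL-1β (log2 −1.91, SE 0.40). Angpt1 and Wnt2 passed the minimum of reads through the untreated mice alone, and Procr through the treated mice alone. Like that of Sele, the calls of these genes are given as description, although the counts of their lists include them. Ptprb, the phosphatase VE-PTP that acts on Tie2 and VE-cadherin, fell, with 633 to 936 reads in untreated and 125 to 354 in treated mice (log2 −1.64, SE 0.21, adjusted p = 1.40e-05, edgeR). Figf, the ligand VEGF-D, fell too (log2 −1.56, SE 0.40) and was called in 4 of the 6 tables, whereas Flt1, the receptor VEGFR-1, was at −0.06 and was not called.

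Among general endothelial genes, 7 of 23 rose and 7 fell (median −0.31). Those that rose included Thbd and Procr, thrombomodulin and the endothelial protein C receptor of the anticoagulant protein C pathway (log2 1.58, SE 0.19, and 1.67, SE 0.36), Nos3, the endothelial nitric oxide synthase (1.23, SE 0.23), and Ecscr (1.25, SE 0.27). Sox17, an endothelial transcription factor, fell (−1.31, SE 0.36) and was called in 2 of the 6 tables, and lower too was Vwf, the von Willebrand factor (−0.95, SE 0.19). Of the genes known from sinusoidal endothelium, 1 of 19 rose and 10 fell (median −0.43). Wnt2, a signal that sinusoidal cells send to hepatocytes and given here as description, fell, with 15 to 22 reads in untreated and 1 to 4 in treated mice (log2 −2.70, SE 0.34, adjusted p = 1.38e-05, edgeR). Clec4g (−1.21, SE 0.20), Ehd3 (−1.13, SE 0.14), the mannose receptor Mrc1 (−1.06, SE 0.18), Meis2 (−1.05, SE 0.22) fell as well, as did the Fc receptor Fcgr2b, with 305 to 437 reads in untreated and 122 to 210 in treated mice. Stab1, the relative of Stab2, was at 0.46 with an adjusted p of 0.0549 (edgeR) and was not called.

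**Figure D4:**
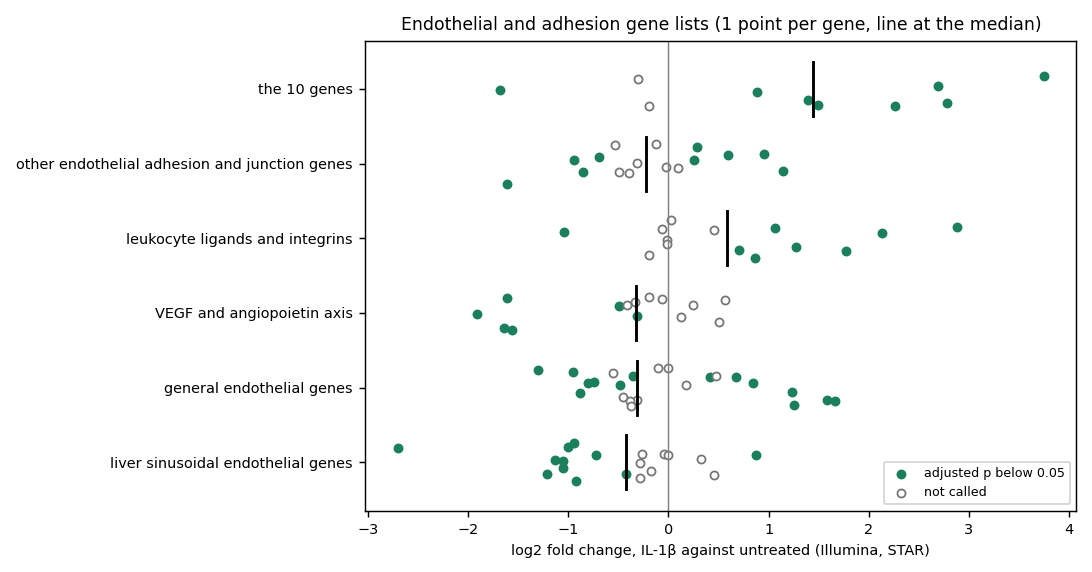
Log2 fold change of IL-1β against untreated (horizontal axis, Illumina with STAR) of each tested gene, grouped by list; filled green points have an adjusted p below 0.05, open points do not, and black lines are medians. The medians of the 10 genes and of the leukocyte ligands lie to the right of 0 and those of the other 4 lists to the left, at −0.22 to −0.43.

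In the list of leukocyte ligands and integrins, 7 of 14 genes rose and 1 fell (median 0.58). Which cells of the liver made these RNAs was not tested. Itgam, the chain of Mac-1 that binds ICAM-1, rose, with 8 to 16 reads in untreated and 66 to 133 in treated mice (log2 2.88, SE 0.24, adjusted p = 2.10e-07, edgeR). Itgb3 (1.78, SE 0.18), the selectin ligand Selplg (1.28, SE 0.28) and the hyaluronan receptor Cd44 (1.06, SE 0.19) rose too. Itgal, the chain of LFA-1, was at −0.02, and Itgb2, the chain that LFA-1 and Mac-1 share, was at 0.46. Neither was called. Itga4, the chain that binds VCAM-1, was at −0.01 and was not called, and Itgb7 fell (−1.04, SE 0.34), a call made in 2 of the 6 tables. Neutrophil markers moved with these values. Of 11 listed, 7 were tested and were called higher, but 5 of these passed the minimum of reads through the treated mice alone, and 4 (Ly6g, Mpo, Elane and Camp) did not pass. The summed level of all 11 was 53.0 to 117 CPM in treated against 2.22 to 6.41 in untreated mice, with Ly6g, Mpo, Ngp and Camp at 0 in all untreated mice. Part of the leukocyte list, such as Itgam and Selplg, is expressed by neutrophils, and the part of these cells in the result was not tested.

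Other marker lists moved less, and their counts of calls stand beside 22.7% of all genes higher and 22.9% lower. Kupffer cell markers summed to 102 to 234 CPM with IL-1β against 159 to 284 (1 of 10 higher, 3 lower), stellate cell markers to 276 to 389 against 351 to 437 (0 of 9 higher, 4 lower), lymphocyte markers to 5.54 to 13.4 against 8.71 to 12.8 (0 of 6 higher, 1 lower) and cholangiocyte markers to 41.9 to 74.0 against 46.0 to 63.4 (2 of 5 higher, 0 lower). Hepatocyte markers were lower in every treated mouse, at 67738 to 82983 against 93508 to 116007 (1 of 9 higher, 5 lower). The general endothelial list summed to 143 to 204 with IL-1β against 143 to 213, and the sinusoidal list to 528 to 693 against 458 to 598. Both of these sums overlapped between the groups. The sinusoidal list had a median log2 fold change of −0.43 with 10 of 19 genes lower. The ratio of its mean sums, treated over untreated, was 1.07 here and 1.01 with STAR on Ion Torrent. Its sum thus did not fall with its median. The growth factor list summed to 294 to 351 against 363 to 450 and did not overlap. The part of cell numbers in the values of the 10 genes was not tested.

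**Figure D5:**
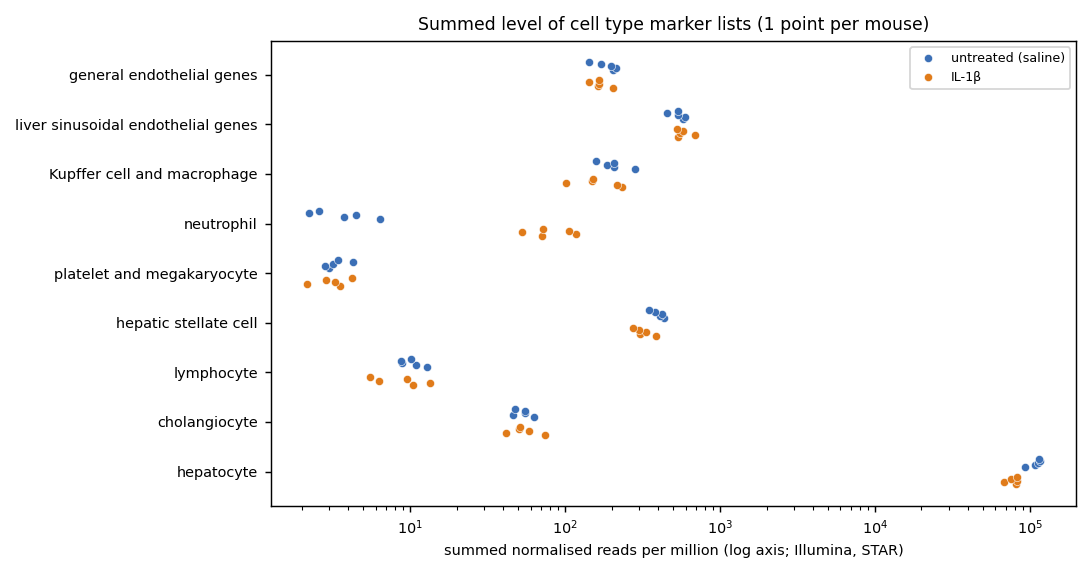
Summed level in CPM (logarithmic horizontal axis, Illumina with STAR) of each marker list in each mouse, untreated in blue and IL-1β in orange. The neutrophil list separates by far the most, 2.22 to 6.41 against 53.0 to 117, and both endothelial lists overlap.

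To place the extremes, the genes whose level followed most closely that of Sele, the gene with the highest log2 fold change, and of Kdr, the lowest, were sought among 10543 genes over the 10 libraries of each platform. For Sele these were Gata6 (Pearson r 0.957 on Illumina and 0.936 on Ion Torrent), Cct3 (0.937 and 0.919) and Rint1 (0.916 and 0.919), with Sele at 0 to 15 reads per Illumina library. For Kdr they were Fcgr2b (0.973 and 0.991), Pacsin2 (0.967 and 0.972) and Gmnn (0.975 and 0.967), of which Fcgr2b is itself on the sinusoidal list. The libraries of both treatments were pooled here, and each mouse's RNA is in both platforms, so the values describe likeness only.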

How the data were processed

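RNA-Seq of 10 mouse livers was analysed from 6 count tables (Illumina and Ion Torrent, 3 aligners, 10 libraries each). The deposited values are counts per gene. The authors aligned to mm9 with GSNAP (2015-12-31), STAR (2.5.1b) or STAR followed by Bowtie2 (2.2.9), versions as in the submitters' processing notes, and with PORT removed rRNA and mitochondrial reads, assigned reads to Ensembl genes and re-sampled each table to one depth. Re-sampling discards reads, which widens the error of sparse genes such as Sele. The tables do not state whether Illumina counts are read pairs. Strand use in counting is not given in the sources used here.

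Genes reaching 5 reads in 5 libraries of any one table were tested, the whole table at once, with edgeR 4.0.16 in R 4.3.3 (TMM, quasi-likelihood, Benjamini-Hochberg over 15578 genes, threshold 0.05, two-sided). Each table was fitted separately. Levels are TMM-normalised CPM values, and ratios within a library used a pseudocount of 0.5. Standard errors are the fold change over the root of the F value. Floors allow 3 counts at the 95% level. Mouse labels pair the libraries of the 2 platforms (correlation of deviations 0.248 to 0.715), so the platform-by-treatment fit had the mouse as a block. Alternatives were DESeq2 1.42.0, limma 3.58.1 (voom), the study's rank-sum test, other scalings and filters, the other tables, no block, and each mouse left out in turn. The fits were tested on simulated data.

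The 10 genes and all lists were chosen with earlier results of these data known. Genes named from lists have an adjusted p below 0.05, an absolute log2 fold change above 1 and 1 direction in all 6 tables, up to 6 per list (marker lists are given by counts), plus the 3 genes most like Sele and Kdr. Flt1, Stab1, Itga4, Itgal, Itgb2 and Vwf were named after their values were seen. Gene positions are from the GENCODE vM1 annotation of mm9. Python 3.11.15 was used for summaries. Listed Cd99 and Tf had no row under these symbols. One gene of the leukocyte list is not reported here by name.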

Additional observations from a re-analysis of the deposited data

Results flagged for a closer look

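Among 40 groups of 5 mice, 3 libraries stood far from the other 4 of their group (10 genes, both platforms, STAR), where chance flags about 1 in 20. All 3 were Ion Torrent libraries. For Cdh5, treated mouse ILB_9577 was at 42.5 CPM (525 reads), with the next mouse at 30.6, a gap of 0.833 of the group's range. For Icam1, untreated mouse UNT_9574 was at 19.4 CPM (268 reads) with the next at 12.8, a gap of 0.823 of the range. For Sele, untreated mouse UNT_9575 was at 0.445 CPM (6 reads) with the next at 0.0759, a gap of 0.829 of the range. Without that mouse the Ion Torrent log2 fold change of Sele rose to its highest value over the 10 fits, 5.04, from 3.05 with all mice.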

How the results depend on the processing

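The direction of all 10 genes was kept in each of the 22 alternatives that gave a fold change (21 for Sele, which a minimum of 20 reads removed). The count of higher genes stayed between 6 and 7, with 6 where a log2 fold change above 1 was also required, since Cdh5 is under it, and 6 with the minimum of 20 reads, which left out Sele. The count of lower genes was 1, and 2 in the 3 Ion Torrent tables, where Stab2 was added. Stab2 was not called in any Illumina fit (log2 −0.42 to −0.17 with 1 mouse left out), so its call rests on the platform and, there, on single mice. Without 1 mouse each, the other called genes kept their call on both platforms with STAR, and the Illumina counts stayed at 7 to 7 higher and 1 to 1 lower. Among the other endothelial and adhesion genes, higher calls fell from 20 to 11 with the rank-sum test and to 10 with a log2 fold change above 1, and lower calls from 28 to 13 with the latter. The rank-sum test was run on the counts without TMM normalisation, and the cause of its smaller count of higher calls was not tested. With 1 mouse left out, higher calls ran from 17 to 20 and lower calls from 20 to 31. The rank-sum test called 13.8% of all genes higher and 24.5% lower. The platform-by-treatment count was 0 with the mouse as a replicate block, 0 without the block and 0 to 0 without each mouse. Depth limits Sele most, with 0 to 1 read per untreated Illumina library.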
